A study of Homo sapiens with 8 samples.

Results

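Long intergenic noncoding RNAs with a LINC symbol were examined in HepG2 and LM3 cells treated with the BET bromodomain inhibitor JQ1. The set holds 162 genes, of 15469 loci with values. A gene belonged to it if its row carried an Ensembl ID, its current symbol was LINC followed by digits only, and its mean over the 4 libraries of a line was at least 0.5 FPKM in both lines. FPKM are fragment numbers divided by transcript length and by the sequencing total of the library. The tables listed 2233 such names, 1210 of them with values. Of these, 166 reached 0.5 FPKM in both lines, 28 in HepG2 only and 59 in LM3 only, and 4 of the 166 were left out by name. The rule used the mean over vehicle and JQ1 libraries together and not the effect of JQ1. A gene could thus pass through its vehicle or its JQ1 libraries alone. Just inside its limit stood LINC01088, at 0.5025 FPKM in HepG2 and 0.5575 FPKM in LM3. Just outside it stood LINC01551, at 0.495 and 0.605 FPKM, and LINC02802, at 1.6025 and 0.4875 FPKM.

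HepG2 and LM3 are established human liver cancer lines, both labelled hepatocellular carcinoma. Each was given either the solvent, labelled Vehicle (DMSO), or JQ1, and no dose or time is named in the labels. The 4 groups had 2 libraries each, made from RNA from which ribosomal RNA had been depleted, and no genetic change is named for any group. The study's title concerns lncRNAs associated with super-enhancers, and the comparisons made here ask which LINC genes changed with JQ1 in each line and whether the lines changed alike. Nothing in the labels says that replicates came from separate cultures, so p-values measure only the spread between libraries, which may be technical. In bulk RNA, fewer cells with a transcript and less transcript per cell cannot be told apart.

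Long intergenic noncoding RNAs are transcribed by RNA polymerase II outside protein-coding genes, and most are capped, spliced and polyadenylated. They are usually less abundant and more restricted to a cell type than messenger RNAs, and many start at enhancers or beside coding promoters. BET proteins bind acetylated histones through their bromodomains and help transcription along. JQ1 occupies these bromodomains and displaces the proteins from chromatin, and genes driven by super-enhancers are known for their sensitivity to it.

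The LINC genes were lowly expressed. Their median level was 1.53 FPKM in HepG2 (range 0.5025 to 28.2) and 1.91 FPKM in LM3 (range 0.5125 to 60.4). The other 1489 loci with an Ensembl ID that passed the same limit had medians of 1.35 and 1.47 FPKM. In HepG2, 53 of the 162 genes were under 1 FPKM and 10 at 10 FPKM or more. In LM3 the numbers were 33 and 16. Every one of the 162 genes was above 0 in every library. The 162 genes together made up 1.63% and 1.67% of all FPKM in the vehicle libraries of HepG2 and 1.52% and 1.47% in its JQ1 libraries. In LM3 the shares were 1.92% and 1.91% for vehicle and 1.76% and 1.74% for JQ1. The share was thus lower in every JQ1 library than in every vehicle library of the same line.

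The FPKM of all loci summed to between 29369 and 35742 per library, and the number of fragments behind them is unknown. Ribosomal RNA and mitochondrial loci took 15.3% and 15.8% of the sum in HepG2 with vehicle and 17.1% and 18.0% with JQ1. In LM3 they took 18.6% and 19.3% with vehicle and 20.7% and 22.3% with JQ1. Between replicates, the median absolute difference of the LINC genes was 0.11 to 0.18 on the log2 scale. Coding markers of hepatocytes (ALB, AFP, APOA1, TTR and HNF4A) are not among the loci of these tables. Hepatic noncoding markers are given by their group means. H19 had 2143 FPKM with vehicle and 2168 FPKM with JQ1 in HepG2 and 329 FPKM with either in LM3. CPS1-IT1 had 6.815 and 1.275 FPKM in HepG2 and 1.375 and 0.335 FPKM in LM3, LINC00261 0.56 and 0.065 FPKM and then 0.03 and 0.00 FPKM, and DIO3OS 0.47 and 0.305 FPKM and then 4.425 and 1.89 FPKM. HULC had 0.715 and 0.6 FPKM in HepG2 and 0.555 and 0.56 FPKM in LM3, and LINC01554 0.21 and 0.305 FPKM and then 0.145 and 0.215 FPKM. HNF4A-AS1, LINC01018 and LINC00844 were at 0.09 FPKM or less in every group. These markers did not move together, and their part in the results was not tested. The immune marker LINC00926, itself one of the 162, had group means of 0.79 to 0.96 FPKM.

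In both lines 28 LINC genes were called in the same direction, 9 higher and 19 lower with JQ1. LINC01270, LINC02861 and LINC00899 fell by more than 1 on the log2 scale in both lines, and LINC02804, LINC00310 and LINC01128 gained. Loci were called by limma on log2(FPKM + 0.5) at a Benjamini-Hochberg adjusted p under 0.05 over all loci tested. Log2 fold changes are on that scale and are given with their standard error. The added 0.5 makes changes of low genes look smaller. Of the 5035 loci tested in both lines, 5.4% were called higher in both and 8.7% lower in both. The 9 and 19 LINC genes are 5.56% and 11.7% of 162. None was called in opposite directions, against a background of 0.0397%. The HepG2 and LM3 fits share no library.

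How many of the 28 kept both calls depended on the setting. With each library centred 22 did (9 higher, 13 lower), with quantile normalization 23, with rescaling that left out ribosomal RNA and mitochondrial loci 24, and with no filter on low values 8. The 6 lost with centring were LINC00313, LINC01089, LINC02595, LINC03015, LINC02298 and LINC02846. LINC00628 was lost with quantile normalization and LINC00641 with the rescaling. The 8 kept without a filter were LINC01270, LINC02861, LINC00623, LINC00707, LINC02765, LINC02804, LINC00310 and LINC01128.

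LINC01270 (ENSG00000203999, chr20:50292709-50315488, GRCh38, plus strand) showed the largest fall of the 28 in LM3. It lies 100020 bp from CEBPB, which encodes the transcription factor C/EBP beta, with no coding gene nearer. In HepG2 it had 3.19 and 3.03 FPKM with vehicle and 1.29 and 1.15 FPKM with JQ1. In LM3 it had 4.84 and 5.09 FPKM with vehicle and 1.3 and 1.65 FPKM with JQ1. All JQ1 libraries were below all vehicle libraries. The log2 fold change was -1.07 ± 0.09 in HepG2 (limma adjusted p = 0.00743) and -1.47 ± 0.12 in LM3 (limma adjusted p = 0.00784).

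LINC02861 (ENSG00000262185, chr16:3930806-3950586, minus strand) lies 2801 bp from ADCY9, an adenylyl cyclase gene. Its levels were 4.24 and 4.20 FPKM with vehicle and 1.55 and 1.84 FPKM with JQ1 in HepG2, and 2.34 and 2.82 against 0.8 and 1.0 FPKM in LM3. The groups did not overlap in either line, and the log2 fold changes were -1.11 ± 0.10 and -1.14 ± 0.13 (limma adjusted p = 0.00797 and 0.0119). LINC00899 (ENSG00000231711, chr22:46039907-46044853, minus strand) fell from 1.98 and 1.78 to 0.82 and 0.45 FPKM in HepG2, and from 1.38 and 1.66 to 0.23 and 0.46 FPKM in LM3. The JQ1 libraries were again the lowest, with changes of -1.09 ± 0.19 and -1.27 ± 0.18 (limma adjusted p = 0.0216 and 0.0178). At these levels the 2 JQ1 libraries of LINC00899 lay far apart on the log scale in both lines. In LM3 both were under the 0.5 FPKM limit, so LINC00899 passed there through its vehicle libraries.

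Among the more abundant genes that fell in both lines were LINC00707 and LINC00623. LINC00707 (chr10:6779549-6879450) had 6.69 and 5.86 FPKM with vehicle and 3.73 and 3.77 FPKM with JQ1 in HepG2. In LM3, where its level was higher, it had 21.39 and 21.26 FPKM with vehicle and 12.95 and 12.88 FPKM with JQ1. The log2 fold changes were close, at -0.67 ± 0.09 and -0.70 ± 0.08, although the levels differed between the lines. LINC00623 (chr1:120913184-121009291) went from 9.96 and 10.72 to 5.26 and 5.94 FPKM in HepG2 and from 9.28 and 9.94 to 4.38 and 4.72 FPKM in LM3. Both JQ1 libraries were well below both vehicle libraries, with changes of -0.83 ± 0.09 and -1.0 ± 0.09. Transcripts nearly identical to LINC00623 exist at 3 other genes, so its own share of these reads is uncertain.

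The other genes lower in both lines were LINC00842, LINC02765, LINC00942, LINC00628, LINC03015, LINC02846, LINC03026, LINC01503, LINC00313, LINC01311, LINC02298, LINC01089, LINC00294 and LINC02595. LINC02765, 18308 bp from the lamin B receptor gene LBR, changed by -0.85 ± 0.13 in HepG2 and -0.88 ± 0.11 in LM3. LINC00942 was at 0.87 and 1.09 FPKM with vehicle in HepG2 and at 5.23 and 4.92 FPKM in LM3, and its changes were -0.78 ± 0.15 and -0.80 ± 0.09. LINC00842 (-0.86 and -0.58) and LINC00628 (-0.71 and -0.64) complete the 8 largest falls in HepG2. LINC00313, 34771 bp from the kinase gene SIK1, changed by -0.53 ± 0.11 in HepG2 and -1.13 ± 0.11 in LM3. A near-identical transcript of LINC00313 exists elsewhere.

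Of the genes that rose in both lines, LINC02804 (ENSG00000274372, chr1:148013203-148025934, plus strand) rose most. It had 0.39 and 0.40 FPKM with vehicle and 1.23 and 1.66 FPKM with JQ1 in HepG2, and 1.56 and 1.81 against 3.39 and 3.55 FPKM in LM3. Both JQ1 libraries were the highest of their line, with log2 fold changes of 1.11 ± 0.14 and 0.86 ± 0.10 (limma adjusted p = 0.0116 and 0.0119). In HepG2 the vehicle libraries of LINC02804 were under the 0.5 FPKM limit, so it entered the set and that test through its JQ1 libraries. LINC00310 (ENSG00000227456, chr21:34157724-34190244, plus strand) had 0.85 and 0.80 FPKM with vehicle and 1.84 and 2.56 FPKM with JQ1 in HepG2. In LM3 it had 3.63 and 3.5 against 5.76 and 5.87 FPKM. The groups did not overlap, and the changes were 1.01 ± 0.16 and 0.64 ± 0.08 (limma adjusted p = 0.0177 and 0.0139).

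LINC01128 (ENSG00000228794, chr1:825138-859446, plus strand) rose from a middling level. Its levels were 5.66 and 5.58 FPKM with vehicle and 9.15 and 8.91 FPKM with JQ1 in HepG2, and 6.09 and 5.55 against 9.39 and 10.52 FPKM in LM3. Replicates were close and the groups well apart, with changes of 0.64 ± 0.07 and 0.73 ± 0.10 (limma adjusted p = 0.0102 and 0.0166). LINC00115, on the opposite strand of the same locus, had changes of 0.03 and 0.01. LINC01409, 15073 bp away on the same strand, changed by 0.54 in HepG2, where it was called, and by 0.25 in LM3, where it was not. LINC01128 has a near-identical transcript elsewhere, and the sources used here do not say whether the counting used the strand.

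The remaining rises in both lines were LINC02256, LINC02936, LINC01176, LINC01315, LINC02693 and LINC00641. LINC02256, near GOLGA8N and with near-identical transcripts elsewhere, changed by 0.93 ± 0.17 and 0.61 ± 0.09. LINC02936, which lies 933 bp from the transporter gene SLC35F5, changed by 0.70 ± 0.14 and 0.80 ± 0.12. LINC02693 was the most abundant of the 9, with 10.02 and 9.91 FPKM with vehicle and 14.38 and 13.88 FPKM with JQ1 in HepG2, and 14.69 and 13.97 against 21.43 and 19.80 FPKM in LM3. Its libraries did not overlap in either line. GENCODE release 29 lists its Ensembl ID as protein-coding.

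**Figure D1:**
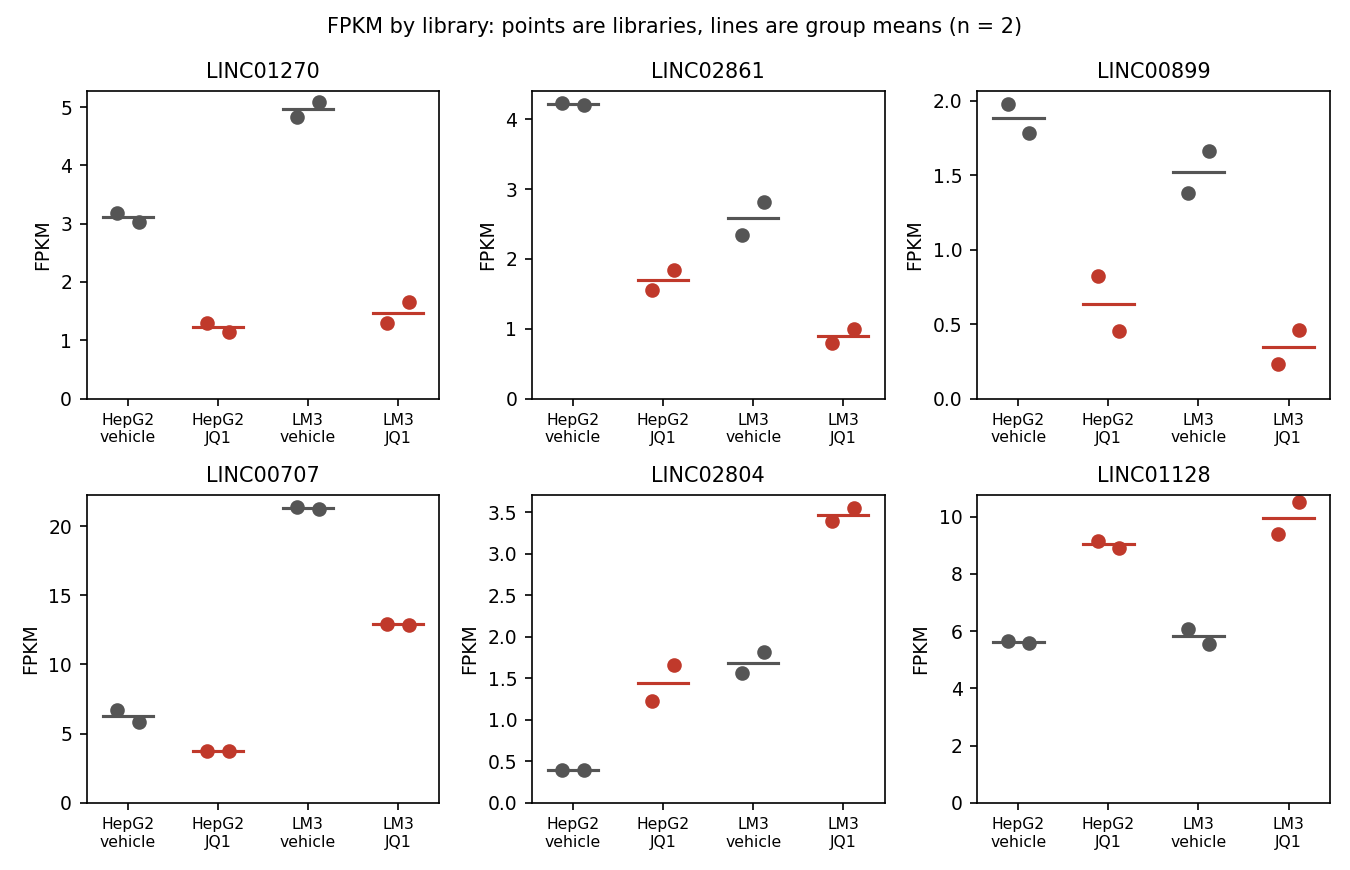
FPKM of 6 LINC genes in each of the 8 libraries, with points for libraries and lines for the mean of 2. LINC01270, LINC02861, LINC00899 and LINC00707 sit lower with JQ1 in both lines, LINC02804 and LINC01128 higher, and no JQ1 point overlaps the vehicle points of its line.

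**Figure D2:**
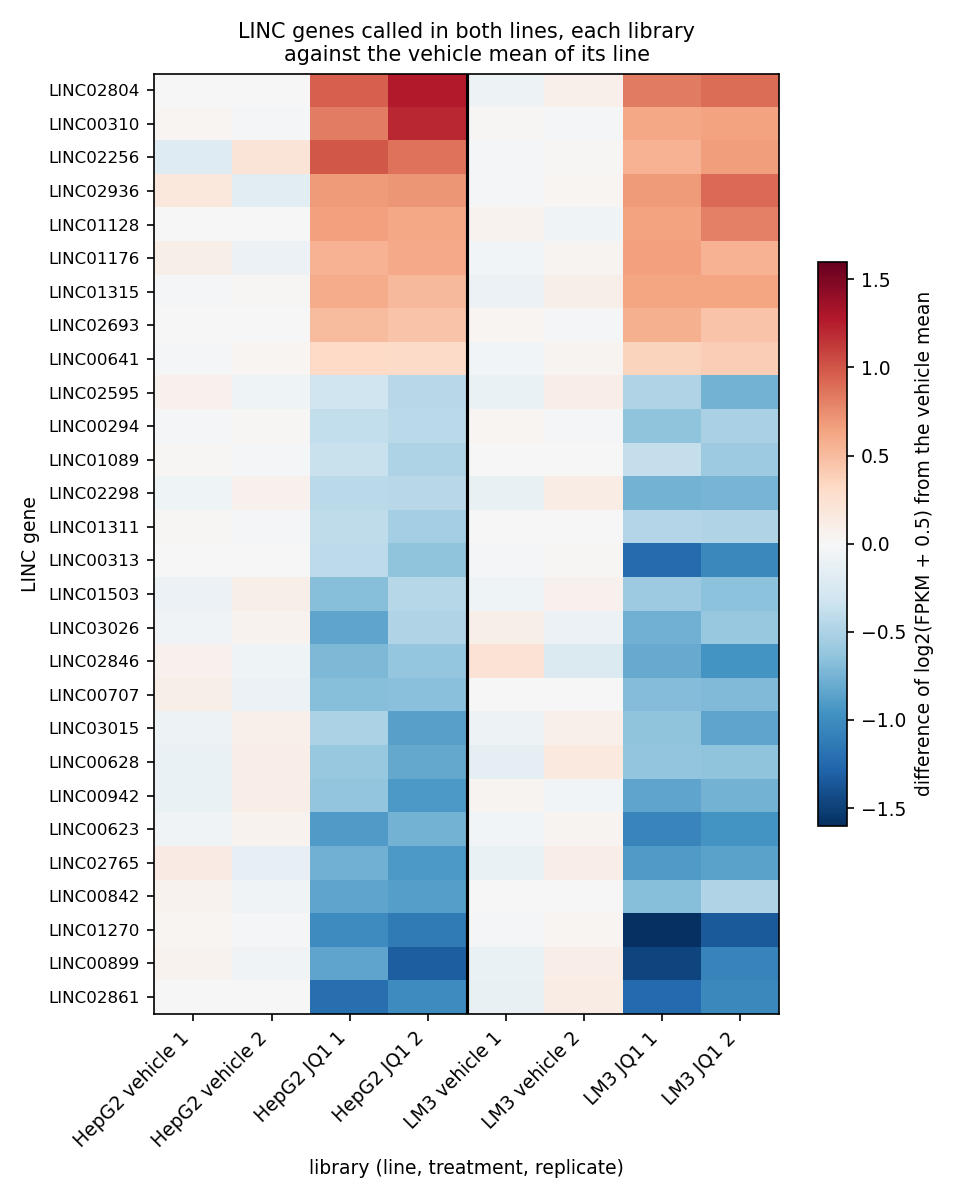
Difference of log2(FPKM + 0.5) from the vehicle mean of the line, for the 28 LINC genes called in both lines (rows, ordered by the HepG2 change) in each library (columns). Red marks higher and blue lower values: 9 genes are higher in all JQ1 libraries and 19 lower.

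Promoter sequence was available for part of the set, and 6 promoters of genes called in both lines are printed to show how unlike they are. RefSeq promoters (GRCh38.p14, from 250 bases before to 50 after a transcript start) were found for 103 of the 162 symbols, and 72 lay within 1000 bp of the start in the tables. LINC01270 (chr20:50292470-50292769, plus), LINC00899 (chr22:46044819-46045118, minus) and LINC00294 (chr11:33075900-33076199, plus) fell. LINC01315 (chr22:42369159-42369458, minus), LINC01176 (chr7:30390635-30390934, plus) and LINC00641 (chr14:21206851-21207150, minus) rose. Capitals mark the GC box, CCAAT box, TATA box and E-box motifs, whose letters are given after the sequences, on either strand.
LINC01270: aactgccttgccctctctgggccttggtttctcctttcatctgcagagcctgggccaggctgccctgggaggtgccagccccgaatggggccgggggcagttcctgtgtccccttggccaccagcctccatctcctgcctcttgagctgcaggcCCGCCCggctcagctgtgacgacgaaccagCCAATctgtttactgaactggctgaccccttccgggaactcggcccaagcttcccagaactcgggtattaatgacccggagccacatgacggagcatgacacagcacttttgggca
LINC00899: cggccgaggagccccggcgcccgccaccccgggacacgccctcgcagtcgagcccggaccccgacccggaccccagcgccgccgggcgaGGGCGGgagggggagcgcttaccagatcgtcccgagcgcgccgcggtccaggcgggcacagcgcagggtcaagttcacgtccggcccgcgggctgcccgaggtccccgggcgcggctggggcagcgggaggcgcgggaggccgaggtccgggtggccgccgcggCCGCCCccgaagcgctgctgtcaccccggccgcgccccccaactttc
LINC00294: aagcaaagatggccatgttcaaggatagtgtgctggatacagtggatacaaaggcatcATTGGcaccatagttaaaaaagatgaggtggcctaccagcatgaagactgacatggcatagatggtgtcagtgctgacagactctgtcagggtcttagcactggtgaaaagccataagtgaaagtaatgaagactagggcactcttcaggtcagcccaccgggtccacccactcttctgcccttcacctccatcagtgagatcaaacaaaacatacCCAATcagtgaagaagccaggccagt
LINC01315: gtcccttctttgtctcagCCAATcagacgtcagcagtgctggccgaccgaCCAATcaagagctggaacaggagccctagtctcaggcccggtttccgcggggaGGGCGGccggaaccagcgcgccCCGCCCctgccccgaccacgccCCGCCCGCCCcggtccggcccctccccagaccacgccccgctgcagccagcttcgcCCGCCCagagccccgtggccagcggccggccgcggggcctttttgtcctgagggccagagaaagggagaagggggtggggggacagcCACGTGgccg
LINC01176: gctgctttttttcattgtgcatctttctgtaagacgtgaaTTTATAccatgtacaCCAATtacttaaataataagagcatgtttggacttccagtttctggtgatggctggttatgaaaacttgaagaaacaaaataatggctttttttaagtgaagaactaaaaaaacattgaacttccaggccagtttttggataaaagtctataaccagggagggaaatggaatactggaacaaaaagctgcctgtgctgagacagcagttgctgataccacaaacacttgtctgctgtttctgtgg
LINC00641: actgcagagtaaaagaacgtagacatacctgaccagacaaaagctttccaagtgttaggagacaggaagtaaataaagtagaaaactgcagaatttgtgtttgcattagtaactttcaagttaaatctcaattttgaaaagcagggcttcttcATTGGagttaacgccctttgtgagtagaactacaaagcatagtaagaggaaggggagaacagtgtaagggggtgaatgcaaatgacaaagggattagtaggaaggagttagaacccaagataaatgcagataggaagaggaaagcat

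GC content differed among the 6 promoters, which were picked to be unlike, so they cannot show whether it follows the direction of change. Median GC content was 64.67% for the 13 promoters of genes lower in both lines. It was 55.83% for the 4 of genes higher in both and 58.83% for the 38 of genes called in neither. LINC00899, which fell, had 81.0% GC and a ratio of observed to expected CpG of 0.976. LINC01270 had 62.0% GC and a ratio of 0.387, and LINC00294, which also fell, 48.0% and 0.058. Among the genes that rose, LINC01315 had 72.7% GC and a ratio of 0.713, LINC01176 37.3% and 0.097, and LINC00641 39.0% and 0.197. A promoter was counted as CpG-rich at a GC content of at least 50% and a ratio of at least 0.6. This held for 34 of the 72 promoters (47.2%), for 46.9% of all 35116 promoters of the table and for 15.5% of all LINC promoters there.

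Motifs were sought on both strands. The core of the GC box, GGGCGG, was present in 9 of 13 promoters of genes lower in both lines (69.2%). It was present in 40 of all 72 (55.6%), in 20 of 38 of genes called in neither line (52.6%) and in 45% of all promoters. Among all LINC promoters of RefSeq, 18.9% had it. The CCAAT box, searched by its 5 letters, was present in 3 of 4 promoters of genes higher in both lines, in 6 of 13 of those lower in both (46.2%), in 34 of all 72 (47.2%), in 16 of 38 of genes called in neither line (42.1%) and in 34.6% of all promoters. The TATA box, TATAAA, was found in 0 of the 13 and in 1 of the 4 higher in both lines. It was in 9 of all 72 (12.5%), in 6 of the 38 called in neither line (15.8%) and in 11.5% of all promoters. The E-box CACGTG, which reads the same on both strands, was in 0 of the 13 and 1 of the 4. It was in 3 of all 72 (4.17%), 1 of the 38 (2.63%) and 7.26% of all promoters. A promoter with several or overlapping copies of a motif was counted once. A match describes these letters in this window and not a bound site.

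In HepG2, 47 of the 162 LINC genes were called, 19 higher and 28 lower with JQ1. They make up 11.7% and 17.3% of the set (29% in all). Over all 5906 loci tested, 10.8% were called higher and 14.2% lower (25.1% in all). Over the other 1489 loci with an Ensembl ID that passed in both lines the shares were 7.99% and 14.8%. The median log2 fold change was -0.05 for the 162 genes, -0.01 for all loci tested and -0.05 for the other Ensembl loci. Vehicle and JQ1 libraries did not overlap for 101 of the 162 (62.3%), against 66.4% of all loci tested. Of the 162, 5 were called with a change of at least 2-fold, 2 higher and 3 lower (4.22% of all loci, either direction).

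Besides the genes described above, the largest rises in HepG2 included LINC02245 and LINC01569. LINC02245 starts beside the centrosomal gene CEP68 on the opposite strand. It had 0.92 and 0.65 FPKM with vehicle and 1.71 and 1.41 FPKM with JQ1 (0.69 ± 0.15, limma adjusted p = 0.0374). LINC01569 had 1.13 and 1.11 FPKM with vehicle and 2.09 and 1.92 FPKM with JQ1 (0.63 ± 0.09, limma adjusted p = 0.0146). Both were higher in every JQ1 library of HepG2. In LM3 their changes were 0.69 ± 0.18 and 0.38 ± 0.10, and neither was called. A locus that overlaps LINC02245 on the same strand was called higher in HepG2 (0.72) and in LM3 (0.6).

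LINC00472 was the most abundant LINC gene in HepG2 and has been reported as tumour-suppressive. It had 25.51 and 24.48 FPKM with vehicle and 32.05 and 30.74 FPKM with JQ1 in HepG2 (0.32 ± 0.07, limma adjusted p = 0.0354). The JQ1 libraries were higher, but the adjusted p was 0.0523 when libraries were rescaled without ribosomal RNA and mitochondrial loci, and 0.0998 with quantile normalization. In LM3 it had 18.11 and 19.45 against 20.44 and 16.65 FPKM, which overlap, and its sign there depended on the scaling (-0.02 as deposited, 0.06 with libraries centred). The other abundant genes of HepG2 were not called: LINC00630 (-0.09), LINC03000 (0.14), LINC03033 (0.01), LINC00958 (0.06) and LINC01278 (0.02). LINC03033 and LINC01278 were below 0 under quantile normalization and under this rescaling.

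In LM3, 43 of the 162 LINC genes were called, 13 higher and 30 lower with JQ1. They make up 8.02% and 18.5% of the set (26.5% in all). Over all 6474 loci tested, 7.92% were called higher and 15.4% lower (23.3% in all), and over the other Ensembl loci 5.78% and 14.6%. The median log2 fold change was -0.20 for the 162 genes, -0.08 for all loci tested and -0.14 for the other Ensembl loci. Libraries did not overlap for 96 of the 162 (59.3%), against 66.7% of all loci. A called change of at least 2-fold was found for 7 genes, all lower (5.48% of all loci, either direction). The balance of calls moved with the scaling: as deposited 30.2% of the 43 were higher, but 18 were higher and 22 lower with each library centred, 17 and 24 with quantile normalization, and 18 and 24 with rescaling that left out ribosomal RNA and mitochondrial loci.

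LINC01186, LINC02615 and LINC01123 were among the 8 largest falls of LM3 and were not called in HepG2. LINC01186 had 4.59 and 6.13 FPKM with vehicle and 1.65 and 1.93 FPKM with JQ1 in LM3 (-1.35 ± 0.16, limma adjusted p = 0.0128). LINC02615, which lies 3922 bp from the progesterone receptor membrane component gene PGRMC2, had 4.43 and 4.85 against 1.89 and 1.53 FPKM (-1.22 ± 0.12, limma adjusted p = 0.0096). LINC01123 had 2.56 and 3.46 against 1.06 and 1.54 FPKM (-0.96 ± 0.20, limma adjusted p = 0.0368), and a near-identical transcript exists elsewhere. In each of the 3 genes both JQ1 libraries were below both vehicle libraries. In HepG2 their changes were -0.64 ± 0.17, -0.45 ± 0.21 and -0.57 ± 0.18. Loci that overlap LINC01186 and LINC01123 on the same strand were called lower in HepG2 too (-0.92 and -1.08). The locus that overlaps LINC02615 was not called there (-0.17).

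LINC02972 was the rise of LM3 not yet described among the largest 8. It had 1.85 and 2.02 FPKM with vehicle and 3.02 and 3.56 FPKM with JQ1 (0.64 ± 0.11, limma adjusted p = 0.0259), and in HepG2 0.49 ± 0.22, not called. LINC00958, which is reported as growth-promoting and lies 17058 bp from TEAD1, a transcription factor of the Hippo pathway, was the most abundant LINC gene of LM3. It had 53.14 and 53.12 FPKM with vehicle and 65.13 and 70.16 FPKM with JQ1 (0.34 ± 0.08, limma adjusted p = 0.0505). The JQ1 libraries were the higher ones, and the call depended on the setting: the adjusted p was 0.0334 with each library centred and 0.0936 when low loci were not filtered out. The other abundant genes LINC00630 (-0.19) and LINC03000 (-0.20) were not called.

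These counts rest on 2 libraries a group. Without any filter on low values, 6 and 10 LINC genes were called higher and lower in HepG2 and 7 and 14 in LM3, and 16 of 47 and 21 of 43 calls were kept, LINC01270, LINC02861, LINC02804, LINC00310 and LINC01128 among them in both lines and LINC00899 in LM3 only. With 1 library left out, limma called 3 higher and 5 lower without vehicle replicate 1 of HepG2, 2 and 6 without vehicle replicate 2, and 0 without JQ1 replicate 1 or 2. In LM3 it called 0 without vehicle replicate 1 or 2 or JQ1 replicate 1 or 2, with 43 to 71 genes at an unadjusted p under 0.05. No called gene changed its sign under any alternative run.

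**Figure D3:**
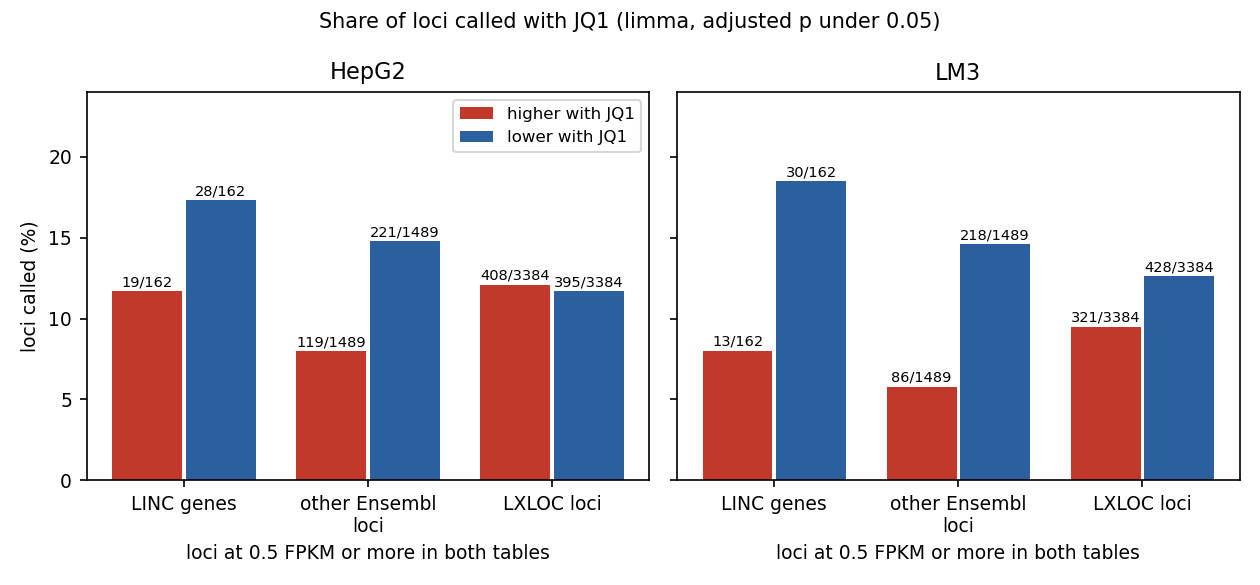
Percent of loci called higher (red) and lower (blue) with JQ1 by limma in each line, among loci at 0.5 FPKM or more in both tables, with the counts above the bars. LXLOC loci are those with a name given by the authors in place of an Ensembl ID. The LINC genes have 11.7% higher and 17.3% lower in HepG2 and 8.02% and 18.5% in LM3.

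The responses of the 2 lines ran alike across the set, as they did across all loci tested in both. Of the 162 genes, 126 had estimates of the same sign in both lines, and no such count was made over all loci. Pearson's r of the log2 fold changes across the 162 genes was 0.821 (Spearman's rho 0.767), against 0.77 across the 5035 loci tested in both lines. The points are genes of the same libraries and are not independent replicates. Of the genes called higher in HepG2, 47.4% were called higher in LM3, and of those called higher in LM3, 69.2% were called higher in HepG2. For genes called lower the shares were 67.9% and 63.3%. Over the 5035 loci, 546 were called higher in HepG2 and 420 in LM3, with 272 in both. Called lower were 644 and 676, with 438 in both, so sharing of calls was not particular to the LINC genes. Called in HepG2 only were 19 genes, in LM3 only 15, and in neither 100.

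A limma fit of all 8 libraries tested whether the responses differed between lines. A difference was called for 0 of the 162 genes and for 11 of 5035 loci (0.218%). At an unadjusted p under 0.05 stood 14 of the 162 genes and 604 of the 5035 loci. None of the genes called in a single line was thus shown to respond differently in the other. The smallest p belonged to LINC02732, which lies 22270 bp from the ferredoxin gene FDX1. It had 1.59 and 1.51 FPKM with vehicle and 1.56 and 1.95 FPKM with JQ1 in HepG2, and 5.0 and 4.09 against 2.71 and 2.36 FPKM in LM3. The libraries overlapped in HepG2 and not in LM3, and the difference of LM3 minus HepG2 was -0.86 (limma adjusted p = 0.2).

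Other differences below 0 were those of LINC00313 (-0.61), LINC02614 (-0.57), LINC01670 (-0.44), LINC01949 (-0.36) and LINC02615 (-0.78). LINC02614 had 2.41 and 2.54 FPKM with vehicle and 3.41 and 3.51 FPKM with JQ1 in HepG2, where it rose, and 6.72 and 7.77 against 6.94 and 5.96 FPKM in LM3, where the groups overlapped. LINC01670 rose in HepG2 by 0.50 and was not called in LM3 (0.05). It is one of a family of near-identical transcripts. LINC01949, with the Ras GTPase-activating gene RASA1 as its nearest coding gene 27743 bp away, was called in neither line. Differences above 0 were those of LINC01341 (0.55), LINC02484 (0.40), LINC00958 (0.29), LINC00165 (0.32), LINC00842 (0.28) and LINC00265 (0.58).

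LINC01341 fell in HepG2 from 1.92 and 1.82 to 1.03 and 1.14 FPKM (-0.58 ± 0.09) and had 1.03 and 1.24 against 1.22 and 0.99 FPKM in LM3 (-0.03 ± 0.13). The libraries were separate in HepG2 and overlapped in LM3, and the difference was not called (limma adjusted p = 0.26). LINC00165 fell in HepG2 (-0.63) and was not called in LM3 (-0.31). LINC02484 rose in LM3 (0.53) and was not called in HepG2 (0.13). LINC00265, 25306 bp from the small GTPase gene RALA, had the largest estimate of change that was not called in HepG2 (-0.85 ± 0.21, limma adjusted p = 0.0514).

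**Figure D4:**
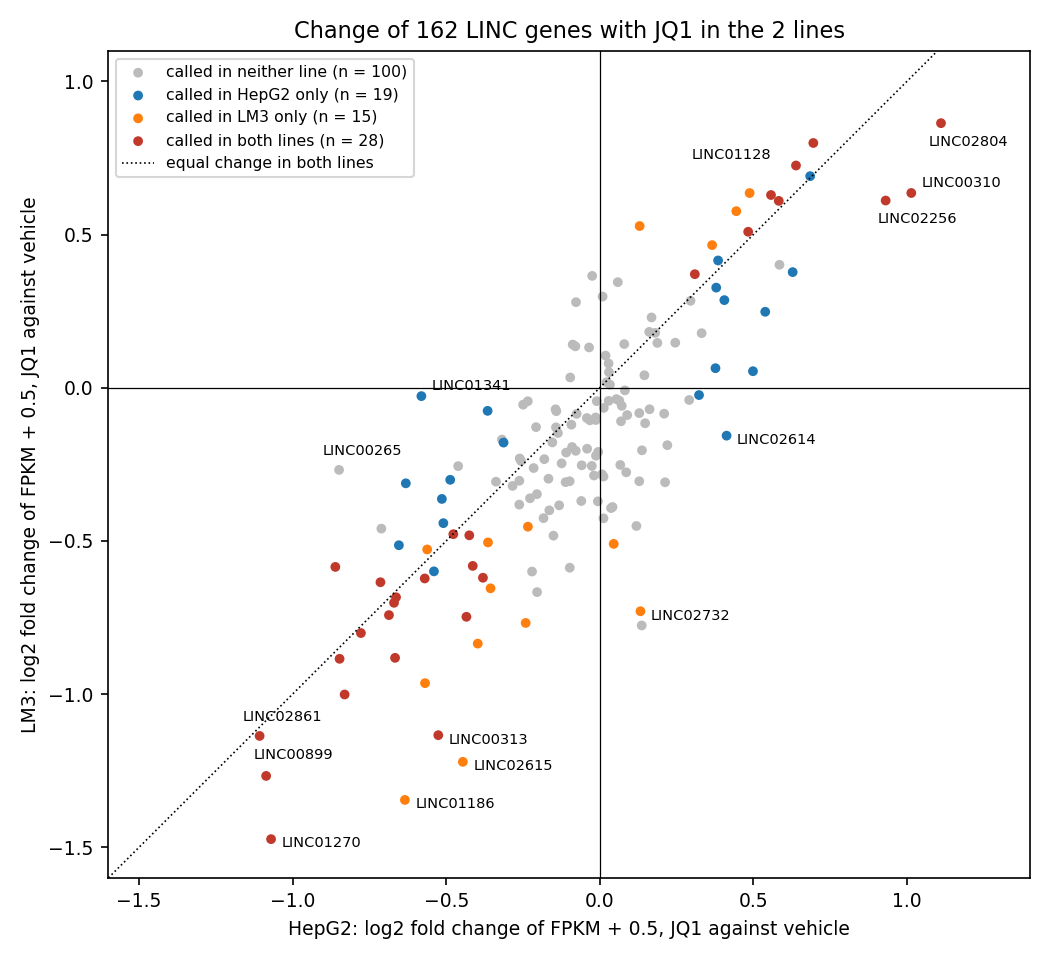
Log2 fold change with JQ1 in HepG2 (x axis) and LM3 (y axis) for the 162 LINC genes, coloured by the lines in which limma called them, with a dotted line of equal change. The 28 genes called in both lines lie in the lower left and upper right parts of the plot, and none is called in opposite directions.

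Pearson's r of log2 vehicle levels between the lines was 0.88 across the 162 genes. The rule kept only genes at 0.5 FPKM or more in both lines, so those that passed in HepG2 only (28) or LM3 only (59) do not enter it. No such value was made for other loci. Levels are set side by side without a test, because the tables may have been scaled separately. LINC00958 had a mean of 12.1 ± 0.78 FPKM in HepG2 and 53.1 ± 0.01 FPKM in LM3 (SD, n = 2). LINC00942 had 0.98 ± 0.16 and 5.08 ± 0.22 FPKM, and LINC00707 6.28 ± 0.59 and 21.3 ± 0.09 FPKM. LINC00882 (4.21 ± 1.27 and 1.47 ± 0.06 FPKM), LINC03011 (3.39 ± 0.09 and 1.2 ± 0.23 FPKM) and LINC02980 (4.30 ± 0.18 and 1.66 ± 0.04 FPKM) had the lowest ratios of LM3 to HepG2 with 0.5 FPKM added to both. The 2 HepG2 libraries of LINC00882 lay far apart, as its SD shows. LINC00707 and LINC00942 fell with JQ1 in both lines despite their different starting levels.

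**Figure D5:**
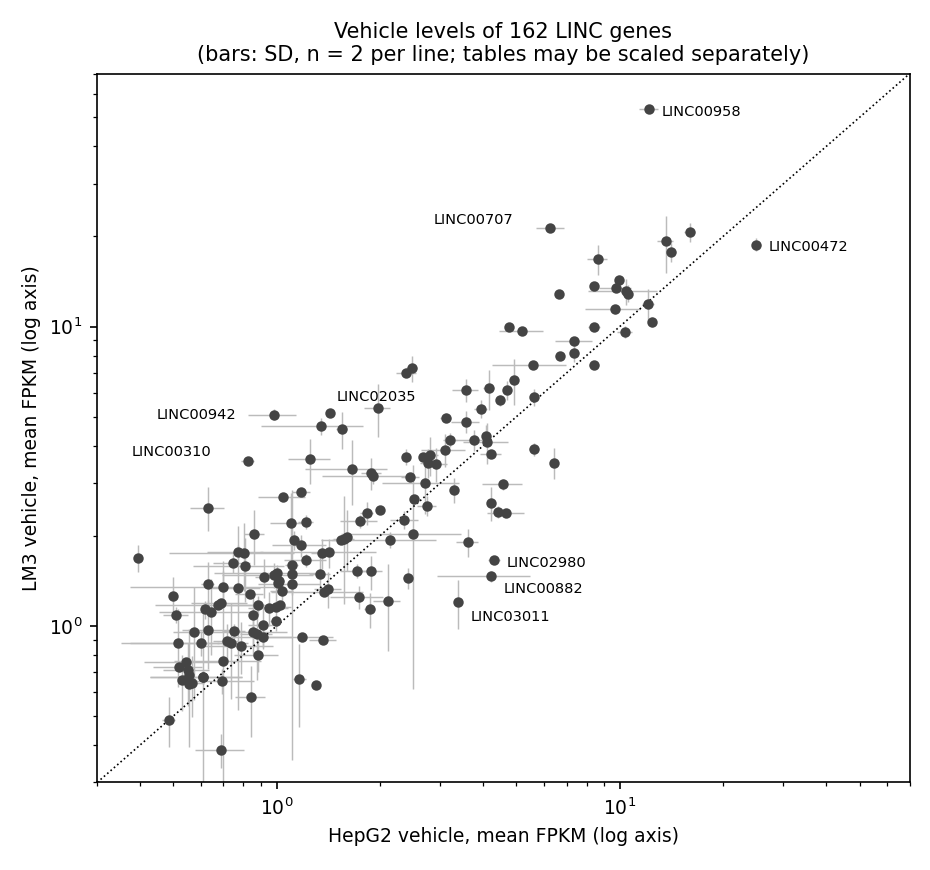
Mean vehicle level in HepG2 (x axis) and LM3 (y axis) in FPKM on log axes for the 162 LINC genes, with bars of 1 SD over 2 libraries. The dotted line marks equal level, and LINC00958, LINC00707 and LINC00942 lie well above it.

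Most of the genes stood apart from coding genes. By their coordinates and GENCODE release 29, 91 had no coding gene within 10 kb and 38 had one within 10 kb. Another 13 started within 1 kb of a coding start on the other strand. A further 10 overlapped a coding gene on the opposite strand, and 10 were classed as overlapping one on the same strand. LINC02693 was put in this last class by its own entry, which release 29 lists as protein-coding. Of the 38 with a neighbour within 10 kb, 6 rose and 11 fell in HepG2 (44.7%) and 4 rose and 11 fell in LM3 (39.5%). Of the 91 isolated genes, 10 rose and 12 fell in HepG2 (24.2%) and 6 rose and 15 fell in LM3 (23.1%). Of the 13 divergent genes, 1 rose and 1 fell in HepG2, and 2 fell in LM3. Over all loci tested 25.1% were called in HepG2 and 23.3% in LM3, close to the shares of the isolated genes. The classes were compared by these counts only.

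LINC01089 and LINC00294 are examples of the classes that touch a coding gene. LINC01089 starts beside SETD1B, a histone H3 lysine 4 methyltransferase gene, on the opposite strand. It had 6.74 and 6.53 FPKM with vehicle and 5.07 and 4.57 FPKM with JQ1 in HepG2, and 12.86 and 12.81 against 9.71 and 8.43 FPKM in LM3. Both falls were separate from vehicle (-0.42 ± 0.09 and -0.48 ± 0.10). The LM3 call was lost with libraries centred on their median, with rescaling that left out ribosomal RNA and mitochondrial loci, and with a replicate block. Both calls were lost without a filter on low values (limma adjusted p = 0.0694 in HepG2 and 0.0735 in LM3). LINC00294 overlaps CSTF3, which encodes a subunit of the cleavage stimulation factor, on the opposite strand. It fell from 8.26 and 8.51 to 6.27 and 6.07 FPKM in HepG2 (-0.41 ± 0.07) and from 13.97 and 13.36 to 8.59 and 9.35 FPKM in LM3 (-0.58 ± 0.09).

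The genes differed in length and in how far their reads can be assigned. The median exonic length was 2550 bp, with 20 single-exon genes. It was 1267 bp for genes higher in both lines, 2142.5 bp for those lower in both and 2798 bp for those called in neither. Another locus of the tables overlapped 47 of the 162 on the same strand, and 18 had a near-identical transcript elsewhere (at least 97% identity). Of the 103 genes with neither, 7 rose and 18 fell in HepG2 (24.3%) and 7 rose and 15 fell in LM3 (21.4%). These shares are close to the 25.1% and 23.3% of all loci tested. Of the 47 overlapped genes, 10 rose and 9 fell in HepG2 (40.4%) and 6 rose and 14 fell in LM3 (42.6%). LINC00310, LINC01128, LINC00899 and LINC00707 are among these 47. The 18 with a near-identical transcript were called at 38.9% in HepG2 and 27.8% in LM3. The reason for these higher shares was not tested. The overlapping loci of called genes moved the same way or were not called: 4 of 15 tested were called in the same direction in HepG2 and 8 of 15 in LM3, and 0 in the other direction. The share called was lowest under 1 FPKM in both lines. Shares by level were not made over all loci, so they are not shown to be particular to the LINC genes. In HepG2 it was 15.1% under 1 FPKM, 34.6% from 1 to under 5 FPKM and 39.3% from 5 FPKM, and in LM3 21.2%, 28.7% and 25.7%.

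LINC genes reported as growth-promoting in cancers were mixed in their response. Of 12 such members, 1 rose and 4 fell in HepG2 and 2 fell in LM3, with medians of -0.06 and -0.29. These are 41.7% and 16.7% called, against 25.1% and 23.3% of all loci tested, whose medians were -0.01 and -0.08. In HepG2 LINC00174 (-0.51 ± 0.09), LINC00294, LINC00339 (-0.37 ± 0.07) and LINC01503 fell and LINC00662 rose (0.39 ± 0.08). LINC01503, a transcript driven by a super-enhancer in squamous cell carcinoma, had 3.46 and 4.04 FPKM with vehicle and 2.14 and 2.59 FPKM with JQ1 in HepG2 (-0.57 ± 0.13), and 3.93 and 4.41 against 2.61 and 2.45 FPKM in LM3 (-0.62 ± 0.10). Its libraries were separate in both lines. LINC00294 and LINC01503 were the ones that fell in LM3 too. LINC00174 (-0.44), LINC00339 (-0.08) and LINC00662 (0.42, limma adjusted p = 0.0513) were not called in LM3.

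Of 3 members reported as tumour-suppressive, LINC00472 and LINC00641 rose and LINC01089 fell in HepG2, and LINC00641 rose and LINC01089 fell in LM3. LINC00641 lies 2236 bp from the RNA-binding protein gene HNRNPC. In HepG2 it had 5.50 and 5.76 FPKM with vehicle and 7.12 and 7.07 FPKM with JQ1 (0.31 ± 0.07, limma adjusted p = 0.0457). In LM3 it had 3.76 and 4.03 against 5.11 and 5.25 FPKM (0.37 ± 0.09, limma adjusted p = 0.0464). The JQ1 libraries were higher in both lines. Both calls were lost without a filter on low values (limma adjusted p = 0.0939 and 0.0896), in limma without trend and robust fitting (0.0629 and 0.0596) and with the replicate number as a block (0.0945 and 0.0797). The HepG2 call was also lost under the same rescaling as that of LINC00472, and the LM3 call when only Ensembl loci were fitted. Of the growth-promoting members 7 were not called in HepG2 and 10 in LM3, and of the tumour-suppressive members 0 and 1.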

How the data were processed

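RNA was sequenced in pairs of reads from 8 libraries. The authors deposited 1 table of FPKM per line, per the file headers, with 2 decimals. The submitters' processing notes list Bowtie 0.12.2, hg19 and mm8 and give them no role, but the coordinates are those of GRCh38: of 158 LINC genes found in GENCODE 29, 158 had the same chromosome and strand and 73 the same start and end. How fragments were counted, by strand or not, and to which total they were scaled is not given in the sources used here. Low values were searched for steps of whole fragments. At the best of many trial steps, 52.2% to 64.1% of them per library lay within 0.1 of a whole step. Evenly spread values would give 20% at a step fixed beforehand, which is not the level for the best of many steps. Fragment counts were thus not recovered, and depth is unknown.

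Each line was fitted in limma 3.58.1 (R 4.3.3, trend and robust moderation) on log2(FPKM + 0.5), over loci averaging 0.5 FPKM or more, two-sided, with Benjamini-Hochberg adjustment over all of them. The difference between lines was fitted over 8 libraries, where a scale difference between tables cancels. The script was tested on simulated data. Near-identical transcripts (at least 97% identity over at least 0.5 of the length) were found with BLAST 2.17.0. Loci overlapped where they shared at least 0.5 of the shorter. Plots were made with matplotlib 3.10.9 and tables with pandas 2.3.3 and NumPy 2.4.6 in Python 3.11.15. Promoters are RefSeq's (GRCh38.p14). The GC box and CCAAT box were added after the other motifs had been seen.

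Members and lists (growth-promoting and tumour-suppressive names, from general knowledge) were chosen with earlier results of these data known. Named genes were the 8 largest rises and falls per line among called genes whose groups did not overlap, the 6 most abundant per line, the 6 with the smallest p for the difference between lines in each direction, and up to 4 called members per list. Genes called in both lines, those that illustrate vehicle levels or position, and neighbours were added after their values were seen. Alternatives were other pseudocounts, filters, scalings and moderation, Ensembl loci only, a replicate block and each library left out.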

Additional observations from a re-analysis of the deposited data

How the results depend on the processing

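The counts of called LINC genes stayed within 1.5 times of 19 higher and 28 lower in HepG2 and of 13 and 30 in LM3 under other pseudocounts, the filter at 1 FPKM, the scalings, Ensembl loci only and limma without trend and robust fitting. Without a filter on low values, where more loci are tested, they were 6 and 10 in HepG2 and 7 and 14 in LM3. Leaving out 1 library gave 0 to 3 higher and 0 to 6 lower in HepG2 (51 to 59 at an unadjusted p under 0.05), and 0 to 0 in LM3 (43 to 71). Such fits have 1 residual degree of freedom, and the lone library is assumed to vary like the other group. Replicate numbers were shared, but deviations of same-numbered libraries correlated at -0.035 in HepG2 and 0.135 in LM3, with 1 pair of groups a line, so no pairing was assumed. With a replicate block, limma called 13 higher and 28 lower in HepG2 and 11 and 25 in LM3, and 24 of the 28 genes called in both lines kept both calls (LINC01089, LINC02595, LINC02298 and LINC00641 did not). Of the 28, 25 kept both with Ensembl loci only and 26 without trend and robust fitting. The difference between lines was called for 0 LINC genes under every alternative in limma, with 8 to 21 at an unadjusted p under 0.05.

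Over all 162 genes, estimates changed sign in at least 1 alternative with all libraries for 23 genes in HepG2 and 21 in LM3, and with 1 library left out for 49 and 44, and 0 of these were called in that line. Among the genes named by the rule, in HepG2 LINC01278 was -0.019 with quantile normalization and -0.037 when rescaled without ribosomal RNA and mitochondrial loci, and LINC03033 was -0.055 and -0.049. In LM3, LINC00472 was 0.059 with libraries centred, 0.026 with quantile normalization and 0.04 when rescaled. With 1 library left out, the ranges of such named genes that spanned 0 were -0.004 to 0.121 for LINC00958, -0.023 to 0.06 for LINC01278 and -0.142 to 0.156 for LINC03033 in HepG2, and -0.168 to 0.12 for LINC00472 and -0.422 to 0.013 for LINC03000 in LM3. The cause was not tested. Without fragment numbers no counting error can be given, so small changes of genes under 1 FPKM were not detectable beyond the spread of 2 libraries.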
